A study of Saccharomyces cerevisiae with 21 samples.

Results

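Ergosterol is the main sterol of yeast membranes. The 31 genes described here make it, esterify or move it, or regulate its synthesis, and they were taken by symbol from the 7123 genes with values in the deposited table. All 31 were found. They fall into 9 genes of the mevalonate steps, 10 genes that lead from squalene to zymosterol, 5 genes of the late steps, 4 genes of sterol esters, acetylation and transfer, and 3 genes of transcription factors.

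RNA was sequenced from 21 cultures of Saccharomyces cerevisiae in 2 series, of 6 mutant strains and of the haploid laboratory strain BY4741. Series 1 held BY4741ΔP (n = 3), Tpho84-Tcyc1 (n = 3, named BY4741 Tpho84-Tcyc1 in the table) and BY4741 numbers 1 to 3 (n = 3). Series 2 held BY4741ΔU (n = 3), ume6Δ (n = 3), pho4Δ (n = 2), pho84Δ (n = 2) and BY4741 numbers 4 and 5 (n = 2). Every culture grew in synthetic medium at 30 °C with 7.2 mM phosphate and 50 mM KCl, with leucine, histidine, methionine and uracil added, and was frozen at an absorbance of 0.5. ume6Δ lacks the gene of a DNA-binding protein that recruits repressors to promoters, pho4Δ lacks the activator of phosphate genes, and pho84Δ lacks the high-affinity phosphate transporter. What is altered in BY4741ΔP, in BY4741ΔU and in Tpho84-Tcyc1 is not given in the labels. The placing of BY4741 numbers 1 to 3 in series 1 rests on their numbers, the design text and an empty column of the table. The cultures of a strain were started from 1 overnight culture, so the tests weigh differences against the spread among cultures with that common start. RNA came from whole cultures, and a gene with fewer expressing cells and one with less RNA per cell cannot be told apart.

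Values are RPM, the reads of a gene scaled by the library total, in libraries of 10.98 to 49.8 megareads (median 17.9), so that 1 RPM stood for 10.98 to 49.8 reads. UME6 had 0 to 0.343 RPM in ume6Δ and 52.9 to 77.8 RPM in the other libraries. PHO4 had 0.0757 to 0.115 RPM in pho4Δ and 63.2 to 123 RPM in the others. PHO84 had 0.143 and 0.0771 RPM in pho84Δ, but it was also low in pho4Δ (0.0757 and 0.0577 RPM) and Tpho84-Tcyc1 (0.807 to 1.42 RPM), against 76.2 to 157 RPM in BY4741. In ume6Δ library 1, PHO84 had 8.41 RPM, apart from the 83.8 and 89.8 RPM of libraries 2 and 3. URA3, LEU2 and MET17, which BY4741 lacks, had 0 reads in all 21 libraries.

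Sterol synthesis starts with acetyl-CoA, which the mevalonate steps turn into farnesyl pyrophosphate. A pair of these units is joined to squalene, which is oxidized and closed to lanosterol, and demethylation and changes of double bonds then lead to ergosterol. Excess sterol is stored as esters in lipid droplets. When sterols run low, the related transcription factors Upc2 and Ecm22 raise the genes of the pathway through a sterol element in their promoters.

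On the scale of RPM per kb of coding length, the levels in the 5 BY4741 libraries spanned the pathway widely. ERG20, which encodes farnesyl pyrophosphate synthase, had the highest mean level, 465 RPM per kb (range 409 to 504). The next 4 mean levels were 355 RPM per kb for ERG6 (345 to 372), 326 for ERG25 (279 to 370), 323 for ERG10 (275 to 356) and 313 for ERG2 (240.3 to 377). ERG20 did not overlap ERG6, whereas the ranges of these 4 genes overlapped each other. The lowest mean level per kb was that of HES1, 6.22 RPM per kb (5.04 to 7.68). Above it stood the transcription factor genes UPC2 at 18.5 RPM per kb (14.6 to 25.2), SUT1 at 20.1 (16.2 to 22.2) and ECM22 at 20.3 (17.5 to 24.7), with overlapping ranges. The esterification genes stood at 47.4 RPM per kb for ARE1 (39.1 to 53.7) and 32.6 for ARE2 (25.8 to 43.5). The HMG-CoA reductase genes HMG2 (24.3 RPM per kb, 19.97 to 29.6) and HMG1 (22.8, 21.2 to 25.3) overlapped.

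The 31 genes together held 6190.0 ± 141 RPM in ume6Δ, 5361 ± 46.5 in BY4741ΔU, 5311 ± 10.3 in pho4Δ and 5267 ± 8.86 in pho84Δ, against 5213 ± 80.7 in BY4741 of series 2 (mean ± SD). In series 1 they held 5530.2 ± 208 RPM in BY4741ΔP and 5541 ± 137 in Tpho84-Tcyc1, against 5612 ± 84.2 in BY4741. The ume6Δ libraries, at 6039.7 to 6318 RPM, stood above every other library of the 21. The log2 difference from BY4741 of series 2 was 0.25 in ume6Δ and 0.16 after TMM, a scaling that sets the bulk of the genes level. In BY4741ΔU this difference was 0.04, and it turned to -0.10 after TMM. The libraries of BY4741ΔP, Tpho84-Tcyc1, BY4741ΔU, pho4Δ and pho84Δ lay at 5260.4 to 5770.3 RPM, and BY4741 of series 2 at 5156 and 5270.1 RPM.

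The sequences upstream of the genes show where known elements lie in this set. The 500 bases before each start codon were read from the reference genome R64 and searched on both strands for TCGTATA, the sterol element bound by Upc2 and Ecm22, for GGCGGC, the core of the Ume6 site, and for CACGTG, the Pho4 site. TCGTATA was found before 8 of the 31 genes (25.8%) and in 7% of 6000 such windows in the genome. The 8 genes are ERG13, ERG8, ERG1, ERG25, ERG28, ERG6, ERG2 and ERG3. Sites of genes that were called below are printed on the strand of the gene, with the element in capitals, at ERG8 (chrXIII:712144-712190, plus strand), ERG3 (chrXII:253515-253561 and chrXII:253555-253601, plus strand), ERG25 (chrVII:610081-610127, plus strand), ERG2 (chrXIII:667332-667378, plus strand), ERG1 (chrVII:848779-848825, minus strand), ERG28 (chrV:238268-238314, minus strand) and ERG6 (chrXIII:253396-253442, minus strand).
ERG8: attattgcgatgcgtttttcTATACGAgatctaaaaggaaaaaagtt
ERG3, first site: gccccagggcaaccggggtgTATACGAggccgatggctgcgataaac
ERG3, second site: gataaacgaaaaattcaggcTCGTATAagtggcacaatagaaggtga
ERG25: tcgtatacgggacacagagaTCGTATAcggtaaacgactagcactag
ERG2: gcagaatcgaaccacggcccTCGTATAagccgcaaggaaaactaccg
ERG1: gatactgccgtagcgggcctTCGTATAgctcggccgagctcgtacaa
ERG28: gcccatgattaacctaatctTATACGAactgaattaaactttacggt
ERG6: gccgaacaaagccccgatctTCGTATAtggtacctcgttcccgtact
The ERG25 stretch opens with another copy of the element in lower case. The site before ERG2 lies inside the annotated gene RNA170, and the gene MIN4 lies between the site before ERG6 and the start codon.

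The Ume6 core was no more frequent before these genes than elsewhere, at 3 of 31 windows (9.68%) against 9.57% of the 6000. It stood before HMG2 (chrXII:1032140-1032185), ERG12 (chrXIII:684052-684097) and UPC2 (chrIV:889469-889514), which are shown because ume6Δ lacks the protein that binds it. All 3 are on the plus strand and carry the core as GCCGCC on the strand of the gene.
HMG2: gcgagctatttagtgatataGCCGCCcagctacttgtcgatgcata
ERG12: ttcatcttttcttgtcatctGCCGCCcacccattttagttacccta
UPC2: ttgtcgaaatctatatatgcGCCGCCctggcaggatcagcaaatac
ARE2 and HES1, described next, had no GGCGGC within their 500 bases. CACGTG was found before ERG20, NCP1 and ARE2 (9.68% of the 31 windows, against 6.23% of the 6000). The ARE2 site, at chrXIV:665080-665125 on the plus strand, is shown because ARE2 was the gene called in Tpho84-Tcyc1.
ARE2: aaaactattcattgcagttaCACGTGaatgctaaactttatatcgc
ATTGTT, the core of the site of the hypoxic repressor Rox1, was found in 20 windows (64.5%, against 48.9% of the 6000). A match is a string of letters in a window and says nothing of whether a protein binds there.

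Genes were tested with limma on log2(RPM + 1) in a fit of each series, and a gene is called where its p, adjusted by Benjamini-Hochberg over all genes tested, is under 0.05. Folds are log2 differences on that scale with their standard error (SE). All 31 genes passed the filter on low values in every comparison. Where groups are said not to overlap, this describes the libraries and is not a test. Relative to BY4741 of series 2, 16 of the 31 genes did not overlap in ume6Δ and 16 in BY4741ΔU. The same held for 12 genes in pho84Δ, 9 in pho4Δ and 18 between pho4Δ and pho84Δ, where 0 of the 31 were called. The share of all genes without overlap is not given, so these counts cannot be read as particular to the 31 genes.

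**Figure D1:**
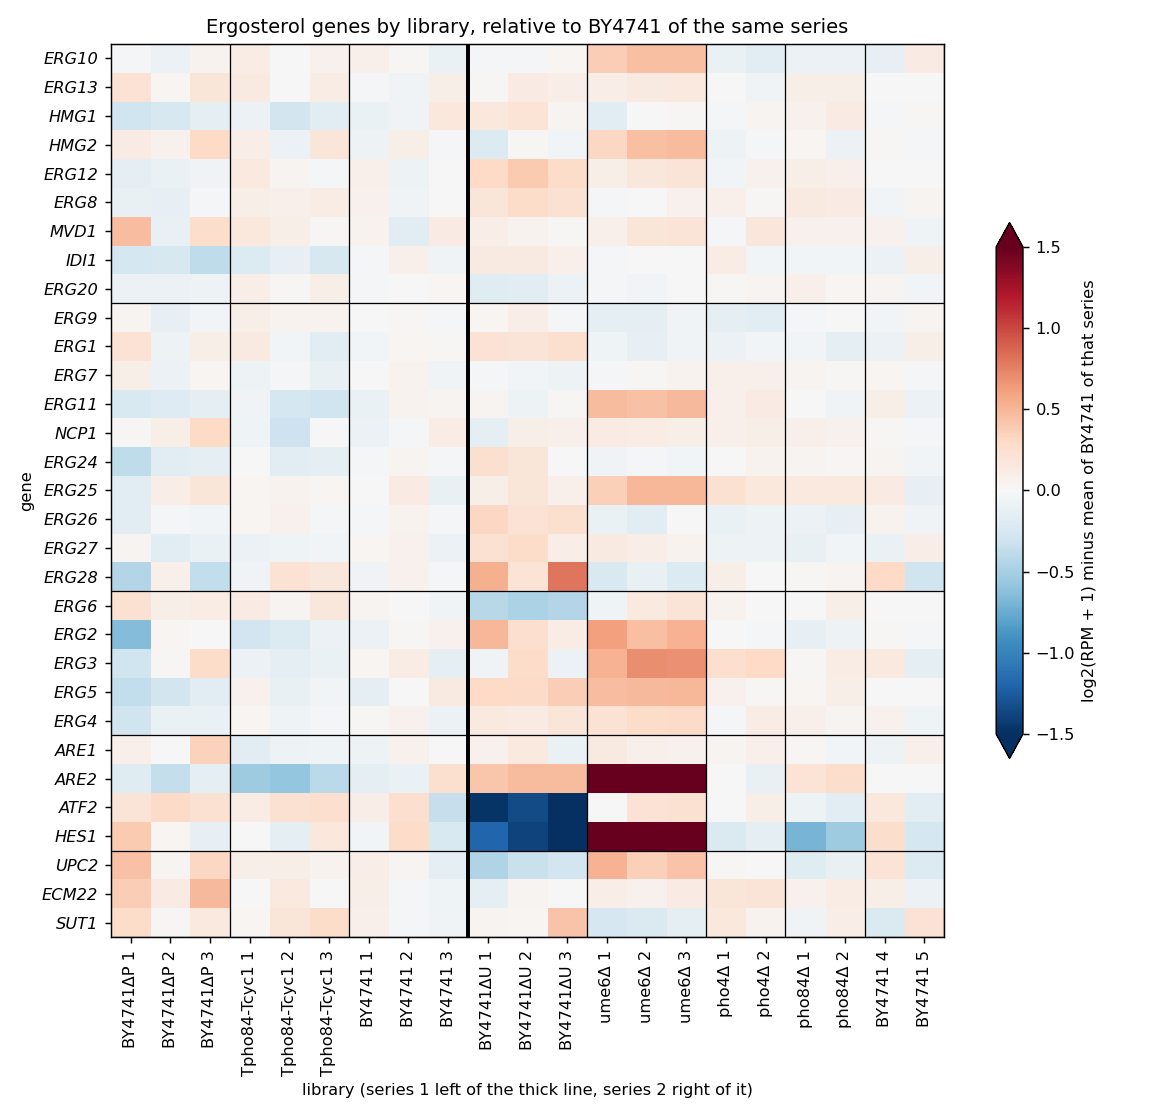
Each row is a gene and each column a library, and the colour gives log2(RPM + 1) minus the mean of BY4741 of the same series (colours end at -1.5 and 1.5). Red columns for ARE2 and HES1 in ume6Δ and blue ones for ATF2 and HES1 in BY4741ΔU stand out, while pho4Δ and pho84Δ stay pale.

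In ume6Δ, 11 of the 31 genes rose relative to BY4741 of series 2 and none fell. ERG9 was called lower as well after TMM and by edgeR and DESeq2. Over BY4741 of series 1, 10 genes were higher and 5 lower (ERG20, ERG24, ERG28, ARE1 and SUT1). These 10 included MVD1 and ECM22, which were not called over series 2. Over all 5 BY4741 libraries 11 were higher and 3 lower (ERG20, ERG24 and ERG28). There ECM22 was added and ERG2 was not called (0.19, adjusted p = 0.328). With these 2 controls, 3462 and 2496 of 5927 genes were called in either direction. Over BY4741 of series 2, 23.1% of all 5840 genes tested were called higher and 11.3% lower. The largest rises were those of the sterol esterification gene ARE2 and of the sterol-transfer gene HES1, and 4 of the 5 late genes rose. The median fold of the 31 genes was 0.11, beside 0.04 for all genes tested.

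ARE2 encodes the main acyl-CoA:sterol acyltransferase, which makes sterol esters. It had 231, 244 and 243 RPM in ume6Δ, against 49.8 and 50.3 RPM in BY4741. All ume6Δ libraries lay far above all others of the 21, whose highest value was 83.9 RPM. The fold was 2.23 (SE 0.06, adjusted p = 5.57e-12). Its paralog ARE1 had 83.3, 80.0 and 78.9 RPM in ume6Δ, against 71.6 and 80.0 RPM in BY4741, and was not called (0.09, SE 0.08, adjusted p = 0.416). ARE1 overlaps the annotated gene YCR050C, and the sources used here do not say whether the counting used strand.

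HES1 encodes an oxysterol-binding protein that carries sterols between membranes. It had 32.2, 30.4 and 31.9 RPM in ume6Δ, against 10.0 and 6.65 RPM in BY4741. The highest value of another strain was 10.7 RPM, and the fold was 1.82 (SE 0.19, adjusted p = 3.07e-06). ATF2, whose product acetylates alcohols and sterols, had 44.4, 51.9 and 52.4 RPM in ume6Δ, against 49.8 and 39.7 RPM in BY4741. These groups overlapped, and ATF2 was not called (0.15, SE 0.19, adjusted p = 0.585).

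Among the late genes, ERG3, the sterol C-5 desaturase gene, had 312, 351 and 350.2 RPM in ume6Δ, against 241 and 195 RPM in BY4741 (0.64, SE 0.11, adjusted p = 0.000343). ERG2, the sterol isomerase gene, had 250.2, 224 and 233 RPM in ume6Δ, against 165 and 161 RPM in BY4741 (0.53, SE 0.09, adjusted p = 0.000343). ERG5, which encodes the C-22 desaturase, had 109.6, 112 and 113 RPM in ume6Δ, against 79.0 and 80.1 RPM in BY4741 (0.48, SE 0.06, adjusted p = 2.29e-05). In all 3 genes the lowest ume6Δ library was above the highest BY4741 library of series 2. For ERG2, BY4741 of series 1 had 226 to 252 RPM, which overlapped ume6Δ. ERG4, the gene of the last reductase of the pathway, had 345, 361 and 363 RPM in ume6Δ, against 311 and 285 RPM in BY4741 (0.26, SE 0.06, adjusted p = 0.00552). ERG6, the sterol methyltransferase gene, was the late gene that was not called: it had 381, 444 and 455 RPM in ume6Δ and 401 and 397 RPM in BY4741 (0.09, adjusted p = 0.367).

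Of the 10 genes from squalene to zymosterol, 2 rose, a share near the 23.1% of all genes called higher. ERG11, which encodes the lanosterol demethylase inhibited by azole antifungals, had 559.6, 543 and 563 RPM in ume6Δ, against 427 and 377 RPM in BY4741 (0.47, SE 0.07, adjusted p = 5.62e-05). ERG25, the C-4 methyl oxidase gene, had 364, 401 and 399.7 RPM in ume6Δ, against 309 and 259 RPM in BY4741 (0.45, SE 0.08, adjusted p = 0.000336). Neither gene overlapped between the strains. The other 8 genes (ERG9, ERG1, ERG7, NCP1, ERG24, ERG26, ERG27 and ERG28) were not called, with folds of -0.18 to 0.11. They include NCP1, the reductase that supplies electrons to Erg11 (254, 251 and 247 RPM in ume6Δ, 235 and 231 RPM in BY4741, adjusted p = 0.252).

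Of the 9 mevalonate genes, 2 rose, which is also near the 23.1% of all genes. ERG10, the first enzyme of the pathway (acetoacetyl-CoA thiolase), had 464, 489 and 490.2 RPM in ume6Δ, against 329 and 392 RPM in BY4741 (0.42, SE 0.07, adjusted p = 0.000288). HMG2, one of the HMG-CoA reductase isozymes, had 113, 125 and 127 RPM in ume6Δ, against 92.8 and 90.2 RPM in BY4741 (0.41, SE 0.08, adjusted p = 0.00106). The groups did not overlap in either gene. The other isozyme, HMG1, was not called, with 64.3, 72.8 and 73.0 RPM in ume6Δ and 71.4 and 73.2 RPM in BY4741 (-0.05, SE 0.08, adjusted p = 0.680). The remaining 6 genes (ERG13, ERG12, ERG8, MVD1, IDI1 and ERG20) were not called either.

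Of the regulators, UPC2 rose. It had 86.7, 77.4 and 80.8 RPM in ume6Δ, against 69.0 and 52.0 RPM in BY4741 (0.44, SE 0.10, adjusted p = 0.00436). The BY4741 libraries lay farther apart than the ume6Δ ones, and both lay below the lowest ume6Δ value. Its paralog ECM22 had 60.8, 59.5 and 61.9 RPM in ume6Δ and 60.5 and 53.2 RPM in BY4741 (0.10, adjusted p = 0.377). SUT1, a transcription factor of sterol uptake, had 14.2, 14.5 and 15.5 RPM in ume6Δ and 14.5 and 20.02 RPM in BY4741 (-0.20, adjusted p = 0.311). All 11 calls were kept without ume6Δ library 1, whose PHO84 level stood apart. Without BY4741 number 5, UPC2 (0.24, adjusted p = 0.0922) and ERG4 (0.20, adjusted p = 0.0821) were not called and 9 of the 11 calls remained. Over BY4741 of series 1, ERG2 (-0.03, adjusted p = 0.858), ERG3 (0.28, adjusted p = 0.0537) and ERG4 (0.14, adjusted p = 0.0751) were not called. Over that group the folds of HMG2 (0.88) and UPC2 (0.87) were larger, and those of ERG10 (0.25) and ERG25 (0.30) smaller.

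**Figure D2:**
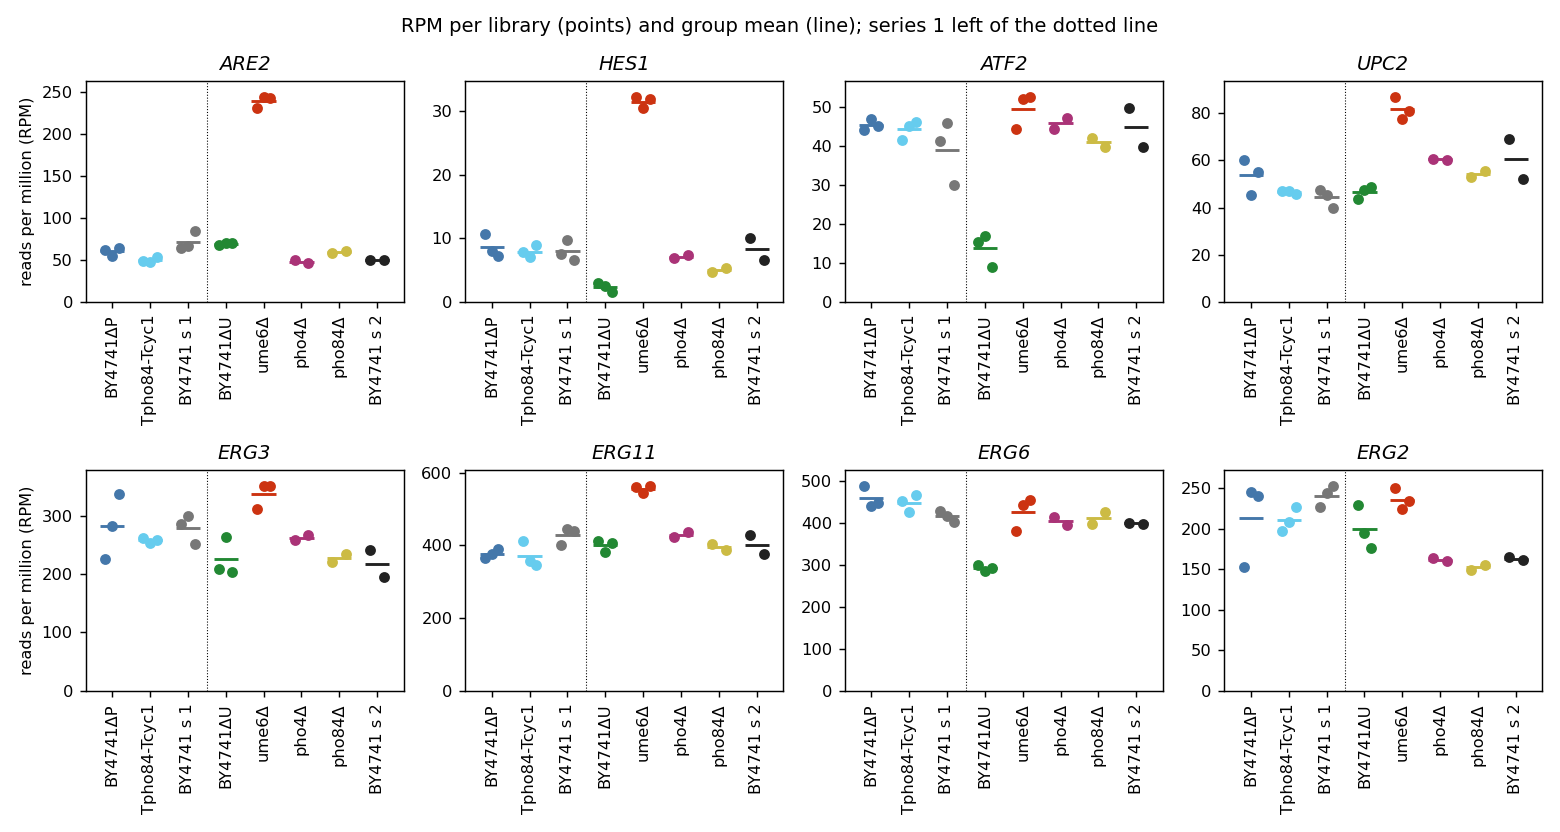
Points are RPM of single libraries of 8 genes and lines are group means, for BY4741ΔP, Tpho84-Tcyc1 and BY4741 of series 1 (left of the dotted line) and for BY4741ΔU, ume6Δ, pho4Δ, pho84Δ and BY4741 of series 2 (right of it). ARE2 at 231 to 244 RPM and HES1 at 30.4 to 32.2 RPM in ume6Δ lie above all other libraries, and ATF2 at 8.97 to 16.9 RPM, HES1 at 1.51 to 3.03 RPM and ERG6 at 286 to 299.7 RPM in BY4741ΔU lie below all others.

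In BY4741ΔU, 14 of the 31 genes were called relative to BY4741 of series 2, 9 higher and 5 lower. The background was wide, with 36.5% of all genes called higher and 13.2% lower, so that neither count stands apart from it. With RPM rescaled by TMM, 4 genes were higher and 5 lower. By edgeR and by DESeq2 on whole reads, 3 were higher (ERG12, ERG5 and ARE2) and 7 lower, with HMG2 and ERG7 added to the 5. The shares of all genes by direction are not given for TMM, edgeR and DESeq2. The median fold was 0.08 for the 31 genes and 0.15 for all genes tested (0.06 for all genes after TMM). The falls of ATF2, HES1 and ERG6 were the main features.

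ATF2 had 15.4, 16.9 and 8.97 RPM in BY4741ΔU, against 49.8 and 39.7 RPM in BY4741. Every BY4741ΔU library lay below the lowest value of the other 7 groups, 29.9 RPM, and the fold was -1.67 (SE 0.19, adjusted p = 1.23e-05). ATF2 lies 405 bases upstream of ERG1 on the same strand of chromosome VII, and ERG1 was called in the other direction. HES1 had 3.03, 2.52 and 1.51 RPM in BY4741ΔU, the lowest being 19 reads, against 10.0 and 6.65 RPM in BY4741 (-1.48, SE 0.19, adjusted p = 3.21e-05). Since HES1 is near the added 1 RPM, this fold understates the ratio. ARE2 had 67.4, 69.8 and 69.7 RPM in BY4741ΔU, against 49.8 and 50.3 RPM in BY4741 (0.45, SE 0.06, adjusted p = 7.58e-05). These ARE2 values did not overlap with BY4741 of series 2 but lay inside the range of BY4741 of series 1, 64.5 to 83.9 RPM, and the fold over that group was -0.04. ARE1 was not called (0.04, adjusted p = 0.730).

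ERG6, whose product adds the methyl group that sets ergosterol apart from cholesterol, had 299.7, 286 and 294 RPM in BY4741ΔU, against 401 and 397 RPM in BY4741 (-0.44, SE 0.07, adjusted p = 0.000237). The BY4741ΔU libraries were the lowest 3 of all 21. ERG5 had 98.3, 97.6 and 103 RPM in BY4741ΔU, against 79.0 and 80.1 RPM in BY4741 (0.32, SE 0.06, adjusted p = 0.000707), with no overlap. ERG2 had 229, 195 and 176 RPM in BY4741ΔU, against 165 and 161 RPM in BY4741 (0.29, SE 0.09, adjusted p = 0.0163). ERG2 was not called without BY4741 number 5 (0.27, adjusted p = 0.084), and its fold over BY4741 of series 1 was -0.27. The ERG2 call also ended after TMM (adjusted p = 0.110), by edgeR (0.187), by DESeq2 (0.182) and with only the compared groups (0.0577). ERG3 (0.05 beside an SE of 0.11) and ERG4 (0.15, adjusted p = 0.0579) were not called.

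In the mevalonate steps, ERG12, the mevalonate kinase gene, had 106, 113 and 105 RPM in BY4741ΔU, against 86.5 and 85.8 RPM in BY4741 (0.32, SE 0.07, adjusted p = 0.00123). The next kinase gene, ERG8, had 126, 134 and 129.8 RPM in BY4741ΔU, against 108 and 114 RPM in BY4741 (0.23, SE 0.06, adjusted p = 0.00791). Both genes were higher in every BY4741ΔU library than in either BY4741 library. ERG20 had 393, 396 and 418 RPM in BY4741ΔU, against 458 and 434 RPM in BY4741 (-0.15, SE 0.06, adjusted p = 0.0396). The ERG20 call ended without any 1 of 4 libraries, BY4741 4 (adjusted p = 0.221), BY4741 5 (0.0504), BY4741ΔU 1 (0.0599) or BY4741ΔU 2 (0.0843). The ERG8 call ended without BY4741 4 (adjusted p = 0.0594), after TMM (0.0525), by edgeR (0.214) and by DESeq2 (0.237). With only the compared groups in the fit, neither ERG8 (0.0615) nor ERG20 (0.163) was called.

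Between squalene and zymosterol, 4 of 10 genes rose, a share near the 36.5% of all genes, and 0 were called lower, though edgeR and DESeq2 called ERG7 lower. ERG1, which encodes the squalene epoxidase inhibited by terbinafine, had 453, 448 and 463 RPM in BY4741ΔU, against 367 and 415 RPM in BY4741 (0.22, SE 0.06, adjusted p = 0.0107). ERG26, a sterol dehydrogenase gene of the demethylation complex, had 137, 129 and 131 RPM in BY4741ΔU, against 114 and 107 RPM in BY4741 (0.26, SE 0.07, adjusted p = 0.00619). ERG27, the keto-reductase gene of that complex, had 142, 147 and 129.8 RPM in BY4741ΔU, against 112 and 129 RPM in BY4741 (0.20, SE 0.07, adjusted p = 0.0332). In these 3 genes the groups did not overlap, with ERG27 closest, at 129.8 RPM in the lowest BY4741ΔU library and 129 RPM in the higher BY4741 library. ERG28, which encodes the scaffold of the complex, had 55.4, 43.9 and 66.9 RPM in BY4741ΔU, against 46.8 and 30.7 RPM in BY4741 (0.51, SE 0.16, adjusted p = 0.0180), and its groups overlapped. ERG25, the third enzyme gene of the complex, was not called (0.11, adjusted p = 0.234). Single libraries ended each of the 4 calls: BY4741 4 for ERG1 (adjusted p = 0.152 without it), BY4741 5 for ERG26 (0.0649), BY4741 4, BY4741ΔU 1 or BY4741ΔU 2 for ERG27 (0.324, 0.0594 and 0.100), and BY4741 5 or BY4741ΔU 3 for ERG28 (0.317 and 0.0709). With edgeR on whole reads, none of these 4 genes was called.

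UPC2 had 43.7, 47.5 and 48.8 RPM in BY4741ΔU, against 69.0 and 52.0 RPM in BY4741 (-0.36, SE 0.10, adjusted p = 0.0105). All BY4741ΔU libraries lay below both BY4741 libraries of series 2. They overlapped BY4741 of series 1, which had 47.4, 45.5 and 40.0 RPM, and the fold over that group was 0.07. Without BY4741 number 4, whose 69.0 RPM was the higher value, UPC2 was not called (-0.16, adjusted p = 0.199). ECM22 (-0.03, adjusted p = 0.795) and SUT1 (0.17, adjusted p = 0.350) were not called.

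**Figure D3:**
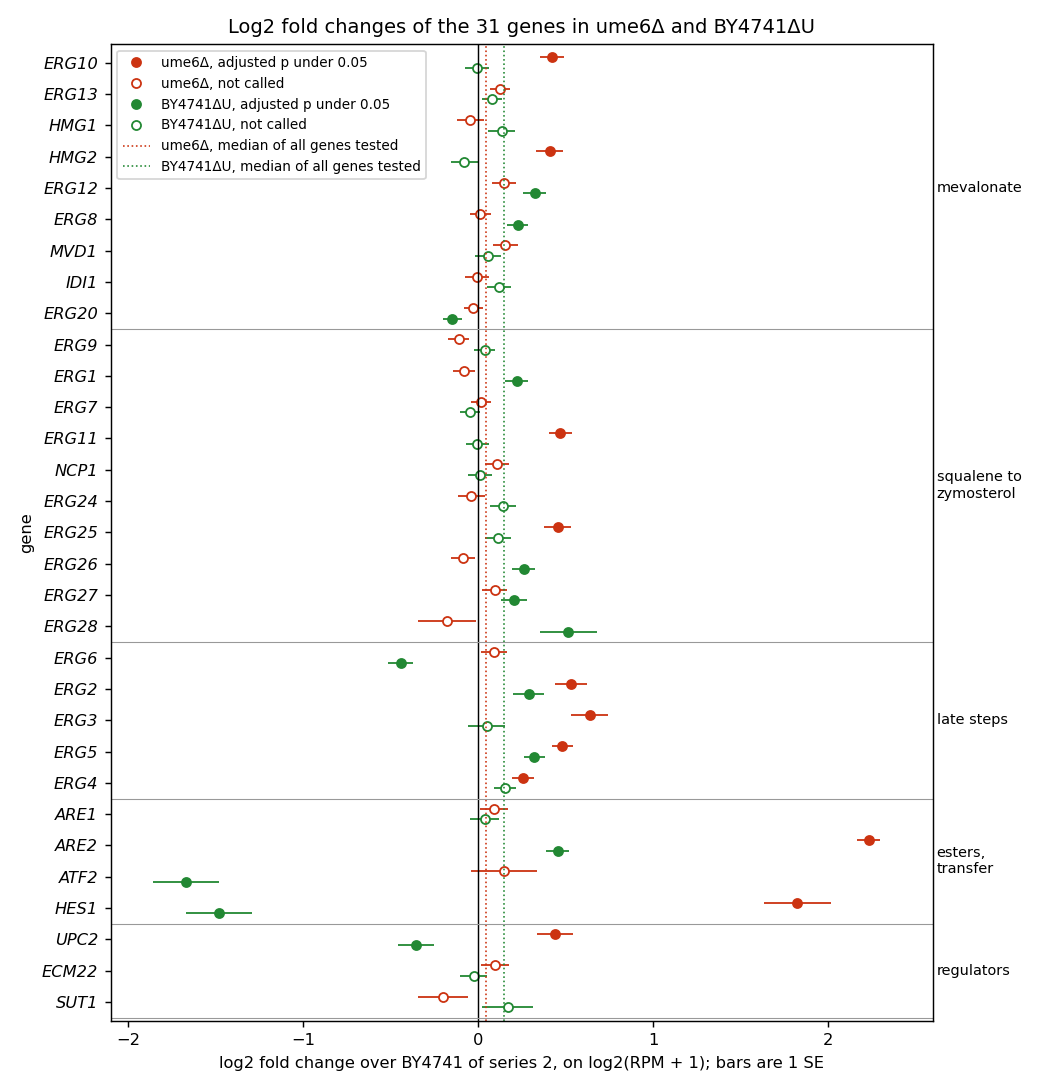
Log2 folds of the 31 genes over BY4741 of series 2 on log2(RPM + 1), with bars of 1 SE, in ume6Δ (red) and BY4741ΔU (green); filled points have an adjusted p under 0.05, and dotted lines give the medians of all genes tested. HES1 lies at 1.82 in ume6Δ and -1.48 in BY4741ΔU, and ARE2 lies right of 0 in both.

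Since both strains share the BY4741 libraries, they were also compared directly. In ume6Δ relative to BY4741ΔU, 12 of the 31 genes were higher and 9 lower, beside 20.1% of all genes called higher and 28.7% lower. After TMM scaling, 16 genes were higher and 6 lower, and with edgeR or DESeq2 on whole reads, 19 were higher and 3 lower. The median fold of all genes was -0.06 by limma on RPM, -0.02 after TMM, 0.03 by edgeR and 0.02 by DESeq2. Shares of all genes by direction are not given for the last 3 fits, so 20.1% and 28.7% are not their background. The 3 genes of the esters and transfer that differed did so most: HES1 by 3.31 (SE 0.17, adjusted p = 1.46e-09), ATF2 by 1.82 (SE 0.17, adjusted p = 7.96e-07) and ARE2 by 1.78 (SE 0.06, adjusted p = 1.13e-11). HES1 averaged 31.5 ± 0.928 RPM in ume6Δ and 2.35 ± 0.774 RPM in BY4741ΔU (SD, n = 3 each). UPC2 averaged 81.6 ± 4.73 RPM in ume6Δ and 46.6 ± 2.67 RPM in BY4741ΔU (0.79, SE 0.09, adjusted p = 7.07e-06).

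Of the 5 late genes 4 were higher in ume6Δ than in BY4741ΔU, namely ERG3 (0.59), ERG6 (0.54), ERG2 (0.24) and ERG5 (0.16), beside 20.1% of all genes. Relative to BY4741 of series 2, ERG6 was lower in BY4741ΔU (-0.44) and not called in ume6Δ (0.09). ERG10 (0.43), HMG2 (0.49), ERG11 (0.47) and ERG25 (0.34) were higher as well. The 9 genes that were lower in ume6Δ than in BY4741ΔU were HMG1, ERG12, ERG8, ERG9, ERG1, ERG24, ERG26, ERG28 and SUT1, with folds of -0.69 for ERG28 (33.4 ± 1.51 RPM in ume6Δ and 55.4 ± 11.5 RPM in BY4741ΔU) to -0.15 for ERG9. The group from squalene to zymosterol held 2 higher and 5 lower genes by limma. By edgeR and DESeq2 it held 4 higher (ERG7, ERG11, NCP1 and ERG25) and 3 lower (ERG1, ERG26 and ERG28). Of the 21 calls, 13 were kept under all 14 alternatives tried for each: those of ERG10, HMG2, ERG1, ERG11, ERG25, ERG26, ERG28, ERG6, ERG3, ARE2, ATF2, HES1 and UPC2. The calls of HMG1, ERG12, ERG9, ERG24, ERG2, ERG5 and SUT1 each ended without at least 1 single BY4741ΔU or ume6Δ library.

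Genes that border on the pathway were counted in lists drawn up with results of these data known, so the counts are a description. The shares of all genes called, 23.1% higher and 11.3% lower in ume6Δ and 36.5% higher and 13.2% lower in BY4741ΔU, are the background to these counts. In ume6Δ, 6 of 8 genes of sterol uptake and export were called higher and 1 lower (median fold 0.33). PDR11, a transporter gene of sterol uptake, averaged 24.4 ± 0.393 RPM in ume6Δ, against 4.70 ± 0.667 RPM in BY4741 (2.16, SE 0.13, adjusted p = 1.25e-08). Its paralog AUS1 averaged 75.7 ± 6.90 RPM in ume6Δ, against 43.5 ± 0.120 RPM in BY4741 (0.78, SE 0.12, adjusted p = 0.000132). Of 5 genes that supply electrons to or scaffold the pathway, 3 were called higher. They include CYB5, the cytochrome b gene (0.97, adjusted p = 4.24e-07), and CBR1, the gene of its reductase, which averaged 477 ± 11.7 RPM in ume6Δ, against 227 ± 8.75 RPM in BY4741 (1.07, SE 0.07, adjusted p = 2.34e-08).

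Of 7 regulators of hypoxic and heme-responsive genes, 4 were called higher in ume6Δ, where 23.1% of all genes were. MGA2, whose product senses membrane lipids and activates the fatty acid desaturase gene, averaged 745 ± 50.2 RPM in ume6Δ, against 205 ± 9.88 RPM in BY4741 (1.86, SE 0.07, adjusted p = 3.52e-11). Of 8 genes of other isoprenoid branches, 3 were called higher. SRT1, a cis-prenyltransferase gene of dolichol synthesis, averaged 30.3 ± 1.596 RPM in ume6Δ, against 0.318 ± 0.0984 RPM in BY4741 (4.57, SE 0.19, adjusted p = 1.66e-10), on a scale that understates the ratio of so low a gene. The remaining lists had 2 of 7 higher for HMG-CoA reductase degradation, 1 of 4 for ester hydrolases, 2 of 6 for transfer at contact sites, 1 of 8 higher and 1 lower for heme synthesis, and 0 of 6 higher and 1 lower for the other oxysterol-binding genes.

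In BY4741ΔU, where 36.5% of all genes were called higher and 13.2% lower, all 5 electron supply genes were called higher and 5 of 8 heme synthesis genes lower, among them HEM13 (72.0 ± 5.23 RPM in BY4741ΔU and 97.0 ± 8.76 RPM in BY4741, -0.42, SE 0.08, adjusted p = 0.000458). Uptake and export had 5 of 8 higher, with PDR11 at 15.8 ± 1.05 RPM in BY4741ΔU, against 4.70 ± 0.667 RPM in BY4741 (1.56, SE 0.13, adjusted p = 1.38e-06). AUS1 was not called (43.9 ± 7.38 RPM in BY4741ΔU and 43.5 ± 0.120 RPM in BY4741). The other lists had 3 of 4 higher for ester hydrolases, 3 of 7 for reductase degradation, 3 of 8 for isoprenoid branches, 3 higher and 1 lower of 6 for contact sites, 2 higher and 2 lower of 7 for the hypoxic regulators, and 1 lower of 6 for oxysterol-binding genes. MGA2 was called lower in BY4741ΔU (-0.18, adjusted p = 0.0329). In pho4Δ and pho84Δ no gene of these lists was called.

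In series 1 few of the genes differed from BY4741. In BY4741ΔP, 1 of the 31 genes was called lower and 0 higher by limma, near the 3.67% of all genes called lower and the 5.8% called higher. The gene was IDI1, DESeq2 called ECM22 higher and ERG24 and ERG5 lower as well, edgeR called IDI1 alone, and 6 genes had an unadjusted p under 0.05, beside 28.5% of all genes. IDI1, which encodes the isomerase that makes dimethylallyl pyrophosphate, had 168, 171 and 155 RPM in BY4741ΔP, against 198, 213 and 195 RPM in BY4741 (-0.29, SE 0.08, adjusted p = 0.0433). Every BY4741ΔP library was below every BY4741 library. The IDI1 call ended without BY4741 1, 2 or 3 (adjusted p = 0.0945, 0.194 and 0.0879) or without BY4741ΔP 3 (0.134), and without BY4741ΔP 2 the calls were 6, with MVD1, UPC2 and ECM22 higher and IDI1, ERG24 and ERG28 lower. The other 30 folds in BY4741ΔP ranged up to 0.33 for ECM22, which had 58.3, 48.7 and 62.9 RPM in BY4741ΔP, against 47.6, 44.1 and 42.7 RPM in BY4741 (SE 0.10, adjusted p = 0.0656). These groups did not overlap, and ECM22 was not called. UPC2 had 60.2, 45.6 and 55.3 RPM in BY4741ΔP, against 47.4, 45.5 and 40.0 RPM in BY4741 (0.27, adjusted p = 0.128).

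In Tpho84-Tcyc1, again 1 of the 31 genes was called lower and 0 higher by limma, near the 3.55% of all genes called lower and the 4.42% called higher. The gene was ARE2, DESeq2 called IDI1 and ERG11 lower as well, and 3 genes had an unadjusted p under 0.05, beside 23.8% of all genes. ARE2 had 49.0, 47.3 and 53.5 RPM in Tpho84-Tcyc1, against 64.5, 66.2 and 83.9 RPM in BY4741 (-0.50, SE 0.11, adjusted p = 0.0194). The groups did not overlap, though the Tpho84-Tcyc1 values were close to those of BY4741 of series 2, and the fold over that group was -0.01. The call ended without BY4741 2 (adjusted p = 0.0666) or 3 (0.0853) and without any 1 of the Tpho84-Tcyc1 libraries (0.0577 to 0.0732). In BY4741ΔP, ARE2 had 62.3, 55.2 and 64.5 RPM and was not called (-0.23, adjusted p = 0.197). IDI1 had 175, 185 and 171 RPM in Tpho84-Tcyc1 (-0.19, adjusted p = 0.175). Between BY4741ΔP and Tpho84-Tcyc1 none of the 31 genes was called by limma, edgeR or DESeq2, and 0.312% of all genes were called. At an unadjusted p under 0.05 stood 7 of the 31 genes and 8.88% of all genes. Without BY4741ΔP 2, ECM22 was called higher and ERG28 lower in BY4741ΔP than in Tpho84-Tcyc1.

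In pho4Δ and pho84Δ none of the 31 genes was called, by limma, edgeR or DESeq2, where 0.223% of all genes were called in pho4Δ and 0.291% in pho84Δ. Unadjusted p was under 0.05 for 4 of the 31 genes in pho4Δ, beside 11.4% of all genes, and for 2 in pho84Δ, beside 11.7% of all genes. The folds of pho4Δ ranged from -0.17 to 0.27, the last being that of ERG3, which had 258 and 266 RPM in pho4Δ, against 241 and 195 RPM in BY4741 (SE 0.12, adjusted p = 0.400). In pho84Δ they ranged from -0.61 to 0.23. The lowest was HES1, with 4.66 and 5.36 RPM in pho84Δ, against 10.0 and 6.65 RPM in BY4741 (SE 0.21, adjusted p = 0.294). The highest was ARE2, with 57.7 and 60.4 RPM in pho84Δ, against 49.8 and 50.3 RPM in BY4741 (SE 0.07, adjusted p = 0.259). Neither gene overlapped, and neither was called. ARE2 had 49.8 and 46.3 RPM in pho4Δ, and between pho4Δ and pho84Δ its fold was -0.29 (adjusted p = 0.133). No gene was called between these strains by limma or edgeR, DESeq2 called ARE2, and 0.497% of all genes were called by limma. At an unadjusted p under 0.05 stood 1 of the 31 genes and 6.66% of all genes. The SEs of the 31 genes were 0.06 to 0.21, at n = 2 per group and with a spread pooled over the 12 libraries of series 2. After adjustment over 5840 genes, the folds of ARE2 (0.23) and HES1 (-0.61) in pho84Δ, several SE in size, were not called.

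BY4741 itself differed between the series, in which series and culture cannot be told apart. In BY4741 of series 2 relative to series 1, 3 of the 31 genes were higher and 7 lower, beside 18.2% of all genes called higher and 18.9% lower. HMG2 had 92.8 and 90.2 RPM in series 2, against 62.7, 70.2 and 64.9 RPM in series 1 (0.47, SE 0.09, adjusted p = 0.000860). ERG2 had 165 and 161 RPM in series 2, against 226, 243 and 252 RPM in series 1 (-0.56, SE 0.14, adjusted p = 0.00479). ARE2 had 49.8 and 50.3 RPM in series 2, against 64.5, 66.2 and 83.9 RPM in series 1 (-0.50, SE 0.10, adjusted p = 0.000694). These 3 calls were kept under all 11 alternatives tried.

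The regulators UPC2 (0.43, adjusted p = 0.00635) and ECM22 (0.34, adjusted p = 0.0105) were also higher in BY4741 of series 2, and not called without BY4741 4 (adjusted p = 0.178 and 0.130). ERG28 (-0.52), ERG3 (-0.36), ERG24 (-0.33), ARE1 (-0.31) and ERG20 (-0.23) were lower. Without BY4741 5, ERG28, ERG3, ERG24 and ERG20 were not called (adjusted p = 0.402, 0.380, 0.0603 and 0.0758), and without BY4741 4 ARE1 was not (0.143). Without BY4741 2, ERG28 (0.0578), ERG3 (0.126) and ARE1 (0.0531) were not called, and ERG3 was not called without BY4741 1 either (0.0891). Over BY4741 of series 1, ARE2 was higher by 1.74 and HES1 by 1.87 in ume6Δ, and ATF2 (-1.46) and HES1 (-1.43) were lower in BY4741ΔU.

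**Figure D4:**
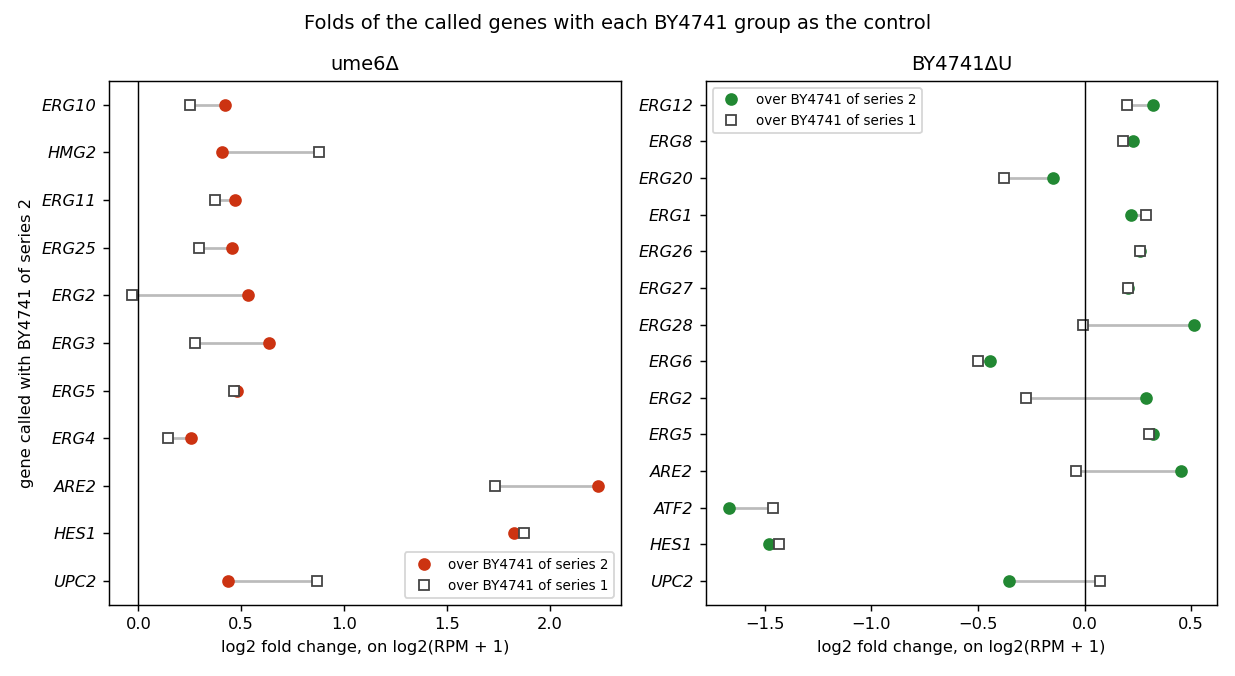
Log2 folds of the genes called in ume6Δ (left) and BY4741ΔU (right), over BY4741 of series 2 (filled) and over BY4741 of series 1 (open squares). In ume6Δ only ERG2 crosses 0. In BY4741ΔU, ERG28, ERG2, ARE2 and UPC2 do, whereas ATF2, HES1, ERG6, ERG5, ERG12, ERG8, ERG20, ERG1, ERG26 and ERG27 stay on their side.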

How the data were processed

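RNA of 21 cultures was sequenced as stranded libraries of purified mRNA, per the labels' protocols. HISAT2, featureCounts and edgeR are named in the submitters' processing notes. Their versions, the genome build and the strand setting are not given in the sources used here. The authors deposited RPM (reads of a gene scaled by the library total) for 7127 genes, of which 4 had no values. RPM steps gave each library's depth, and 100% of values were whole reads within 0.01.

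Groups were compared within a series with limma 3.58.1 (R 4.3.3) on log2(RPM + 1), with a trend, over genes of at least 1 RPM in 3 (series 1) or 2 (series 2) libraries. Adjustment (Benjamini-Hochberg) of p-values ran over 5775 and 5840 genes, and over 5927 genes in a fit of all libraries for BY4741 between series. edgeR 4.0.16 and DESeq2 1.42.0 were run on recovered reads. edgeR called 530 genes in BY4741ΔP, 508 in Tpho84-Tcyc1, 2761 in BY4741ΔU, 2143 in ume6Δ, 13 in pho4Δ and 14 in pho84Δ, and limma called 547, 460, 2904, 2011, 13 and 17 in that order. Other alternatives were pseudocounts, no filter, TMM, single libraries left out, only the compared groups and other controls.

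Members and lists were chosen with earlier results of these data known. Called members are given per library, and others by range, or by value where they partner a called one. Coding lengths and the windows before start codons came from the RefSeq R64 annotation. Deviations of same-numbered cultures correlated at -0.225 to 0.281 in series 1, where cultures of different numbers gave -0.349 to 0.215. In series 2 these ranges were -0.189 to 0.163 and -0.246 to 0.246. The 2 deviations of a group with n = 2 mirror each other, so the series 2 ranges cannot show whether numbers are pairs. In series 1 the ranges overlapped. Replicate numbers were not used as pairs in the main fit.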

Additional observations from a re-analysis of the deposited data

How the results depend on the processing

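Of 58 calls, 28 were kept under every alternative tried for them, and of 786 single checks 660 kept the call, 120 lost it and 6 turned. The cause was not tested. In BY4741ΔP, where 1 gene was called, DESeq2 called 4, a fit of only the compared groups 0, BY4741 of series 2 as control 5 and all 5 BY4741 libraries 2; leaving out single libraries gave 0 to 6. In Tpho84-Tcyc1, also with 1, these were 3, 2, 7 and 0, and 0 to 1. Over all genes (5775, or 5927 with other controls), the first 4 settings called 910, 143, 1583 and 462 in BY4741ΔP. In Tpho84-Tcyc1 they called 839, 1321, 2019 and 520 of all genes. The fit without BY4741ΔP 2, which gave the 6, called 1875 of all genes in BY4741ΔP. In BY4741ΔU, with 14, TMM gave 9, edgeR and DESeq2 10 each, and only the compared groups 7. Of all 5840 genes, these called 2765, 2761, 2753 and 2106 in that order. With BY4741 of series 1 as control, 10 genes were called in each of pho4Δ and pho84Δ, which had 0. With that control, 2144 of 5927 genes were called in pho4Δ and 2345 in pho84Δ, so these counts do not stand apart. BY4741ΔP against Tpho84-Tcyc1 gave 0 to 2 without single libraries, and DESeq2 called 1 gene between pho4Δ and pho84Δ. Over BY4741 of series 1, folds turned for ERG28 (-0.0075), ERG2 (-0.27), ARE2 (-0.042) and UPC2 (0.074) in BY4741ΔU and for ERG2 (-0.029) in ume6Δ; over all 5 BY4741 libraries, ERG2 in BY4741ΔU was -0.049. After TMM the summed log2 difference was -0.0815 in BY4741ΔP, -0.0755 in Tpho84-Tcyc1, -0.100 in BY4741ΔU, 0.160 in ume6Δ and -0.0062 in pho84Δ. On RPM without TMM, the summed difference in BY4741ΔU was 0.0403, and 0.105 without ERG20, ERG6 and ERG11.

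With the replicate number as a block, the counts were 1 in BY4741ΔP, 1 in Tpho84-Tcyc1, 0 between these strains, 16 between ume6Δ and BY4741ΔU (11 higher and 5 lower) and 0 between pho4Δ and pho84Δ. Same-numbered cultures were not taken as pairs in the main fit, and in series 2 the numbers of BY4741, 4 and 5, occur in no other strain. HES1, at 19 reads in its lowest library, was the gene with the fewest reads.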
